A study of Homo sapiens with 16 samples.

Results

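The SMADs and their regulators are described here as 10 genes, SMAD2, SMAD3, SMAD4, SMAD6, SMAD7, SKI, SKIL, TGIF1, SMURF1 and SMURF2, found by symbol among the 58243 rows of a table of RNA-seq read counts. All 10 were present, and all 10 were among the 16647 genes with enough counts to be tested. The cells were U-251 MG, an established human glioblastoma line grown in medium with serum, and every group was this line alone. The treatments began 24 h after seeding and lasted 48 h, and they are named Combo (simvastatin at 0.06 µM with irinotecan at 0.6 µM), Irino (irinotecan at 0.6 µM), Simv (simvastatin at 0.06 µM) and DMSO (the vehicle). Each group held 4 libraries of poly(A) RNA. Simvastatin is a statin, which blocks an early step of cholesterol synthesis. Irinotecan is turned by cells into SN-38, which traps topoisomerase I on DNA. The study set out to find pathways and genes that the drugs affect alone and together. Nothing in the labels ties a library to a culture of its own, so the p-values measure the spread between these libraries, which may be technical.

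SMADs carry signals of the TGF-β family from receptors at the cell surface to the genes they control. Activated TGF-β and activin receptors phosphorylate SMAD2 and SMAD3, which bind the shared partner SMAD4 and move to the nucleus. SMAD6 and SMAD7 are inhibitory SMADs that block receptors or compete for partners, and their own genes are known targets of the pathway, which makes them feedback brakes. SKI, SKIL and TGIF1 are nuclear corepressors that hold SMAD-bound genes down, while SMURF1 and SMURF2 are ubiquitin ligases that mark SMADs and receptors for destruction. In glioblastoma TGF-β signalling is known for its ties to invasion, immune evasion and the upkeep of stem-like tumour cells.

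The promoters of the inhibitory pair are shown because these are the members whose RNA moved most. SMAD proteins bind short DNA motifs called SMAD boxes. The palindromic box GTCTAGAC and the shorter form CAGAC, or GTCTG on the other strand, were searched on both strands in 1 window per gene. The window ran from 250 bases before to 50 bases after the most upstream RefSeq start listed for the gene (build GRCh38.p14). Windows at other starts of a gene were not searched, so a match there would be missed. Capitals mark the matches, and each sequence reads 5′ to 3′ on the strand of its gene. The SMAD6 window is chr15:66701986-66702285 on the plus strand and the SMAD7 window is chr18:48950916-48951215 on the minus strand.
SMAD6: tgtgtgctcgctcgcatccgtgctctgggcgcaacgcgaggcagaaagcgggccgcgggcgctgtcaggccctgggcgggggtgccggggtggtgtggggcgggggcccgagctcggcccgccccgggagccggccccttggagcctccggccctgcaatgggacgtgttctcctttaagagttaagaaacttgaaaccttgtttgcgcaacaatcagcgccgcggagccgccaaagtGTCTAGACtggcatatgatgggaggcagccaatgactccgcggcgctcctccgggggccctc
SMAD7: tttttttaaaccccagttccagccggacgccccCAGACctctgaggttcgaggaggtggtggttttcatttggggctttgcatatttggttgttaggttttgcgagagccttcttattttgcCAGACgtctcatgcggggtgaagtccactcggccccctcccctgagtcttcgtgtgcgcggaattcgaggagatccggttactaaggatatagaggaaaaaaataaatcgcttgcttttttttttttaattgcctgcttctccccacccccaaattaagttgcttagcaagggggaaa
The SMAD6 window holds the palindrome once, beginning 12 bases before the start. The palindrome was found in 57 of 27305 promoters of the same length (0.209%) and in 1 of the 9 member promoters in the table. The SMAD7 window holds CAGAC in 2 places, which begin 217 and 128 bases before the start. The CAGAC form, which cannot lie inside the palindrome, was found in 45.1% of all promoters and in 6 of the 9 member promoters. These matches describe the letters of the windows and are not evidence of binding.

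Library totals ran from 24159673 to 32318888 counts and the mitochondrial share from 2.37% to 4.58%. TMM factors, which scale the libraries to a common set of genes, were 1.009 to 1.033 in the 8 libraries with irinotecan and 0.971 to 0.9875 in the 8 without it. Levels are given as CPM, counts set relative to the size of the library after scaling by these factors. The levels of both marker lists in this paragraph are an exception, as they were set relative to the library totals alone. The factors differ between libraries with and without irinotecan, so these marker levels are not on the scale of the other levels. Genes were called with edgeR's quasi-likelihood F test at an adjusted p under 0.05 over all genes tested (Benjamini-Hochberg). All 8 glioma and astroglial markers were expressed, with summed levels of 5610 to 5780 CPM in Combo, 5740 to 5890 CPM in Irino, 7110 to 7210 CPM in Simv and 7330 to 7560 CPM in DMSO libraries. Of these 8 markers, 7 were called lower with irinotecan, alone and in the combination, against DMSO. This is 87.5% of the list in both comparisons, beside 11.7% and 13% of all genes called lower. The summed level of 18 markers of other cell types was 28.4 to 33.2 CPM in Combo, 26.8 to 30.4 CPM in Irino, 24.5 to 26.8 CPM in Simv and 20.3 to 22.8 CPM in DMSO libraries. Of these 18, 12 stayed under 1 CPM in every library, and the T cell marker CD3E was at 0 in all 16. The other 6 were SYT1, VWF, PDGFRB, SNAP25, RBFOX3 and MOG, with SYT1 the most abundant at up to 22.5 CPM. Of the 8 that were tested, 3 were called higher with irinotecan and 4 with the combination against DMSO, and 0 lower. These are 37.5% and 50% of those tested, beside 12.4% and 15.1% of all genes called higher. With simvastatin against DMSO, 3 of the 8 glioma and astroglial markers were called lower, which is 37.5% of the list beside 2.11% of all genes. Of the tested markers of other cell types, 1, SYT1, was called higher, which is 12.5% beside 3.89% of all genes. The summed levels of both lists did not overlap between Simv and DMSO libraries either. The part of either marker list in the results for the members was not tested. In bulk RNA, fewer cells of a type and less RNA per cell cannot be told apart.

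**Figure D1:**
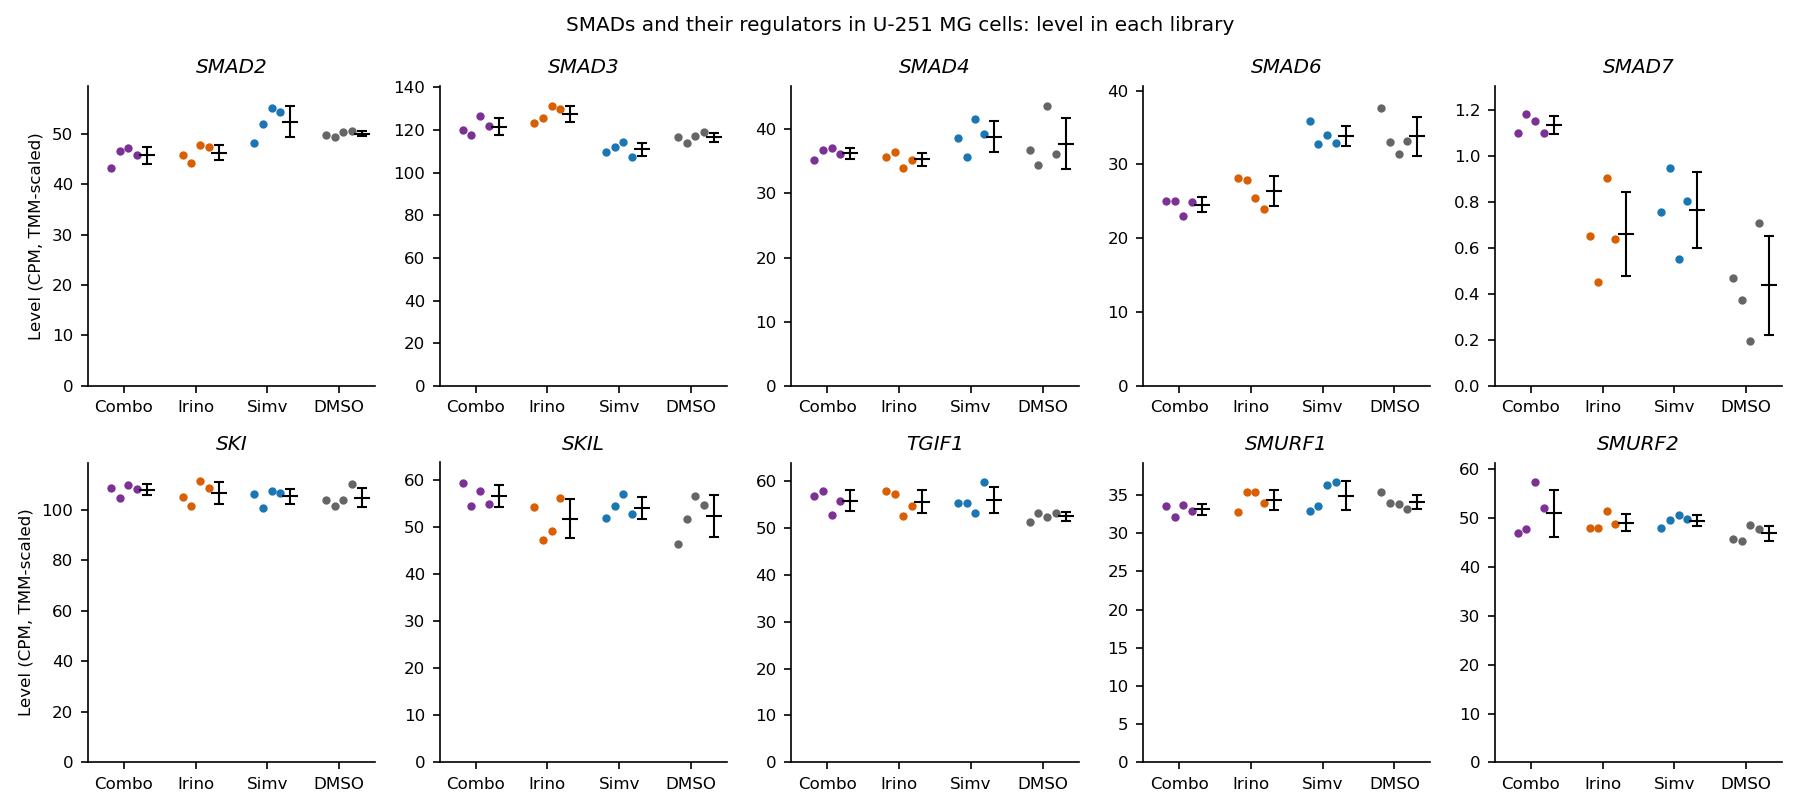
Level of each member gene (CPM scaled by TMM factors, axes from 0) in each library of the Combo, Irino, Simv and DMSO groups. Points are libraries, and the bar beside them is the mean with the SD of 4 libraries. SMAD6 is at 23.0 to 28.2 CPM in all Combo and Irino libraries, below the 31.4 to 37.6 CPM of all Simv and DMSO libraries, and SMAD7 is highest in the Combo libraries.

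SMAD6 was lower wherever irinotecan was given. This gene (ENSG00000137834, GRCh38 chr15:66702228-66782848, protein coding) encodes the inhibitory SMAD best known for damping BMP signals. It had 25.1, 25.1, 23.0 and 24.9 CPM in the Combo libraries (replicates 1 to 4), and 28.2, 27.9, 25.5 and 23.9 CPM in the Irino libraries. Simv libraries had 35.8, 32.8, 33.9 and 32.9 CPM, and DMSO libraries 37.6, 33.0, 31.4 and 33.2 CPM. Every library with irinotecan lay below every library without it, while Combo and Irino overlapped, as did Simv and DMSO. With irinotecan alone the log2 fold change against DMSO was -0.36 ± 0.06 (SE, adjusted p = 3.42e-05 in edgeR), which is 0.781 times the DMSO level. With the combination it was -0.46 ± 0.06 against DMSO (adjusted p = 6.25e-07), a level 0.725 times that of DMSO. Against simvastatin alone the combination gave -0.47 ± 0.06 (adjusted p = 7.24e-07). Its group means share no library with those of irinotecan against DMSO, but both tests take their spread from the same fit of all 16 libraries. Of all genes tested, 6.85% had a lower log2 fold change than SMAD6 with irinotecan alone and 6.16% with the combination, both against DMSO. Simvastatin alone gave 0.00 ± 0.06 against DMSO (95% interval -0.12 to 0.12), and adding it to irinotecan gave -0.11 ± 0.06 (adjusted p = 0.373).

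SMAD7 was scarce and was highest in the combination. It encodes the inhibitory SMAD that brings SMURF ligases to TGF-β receptors (ENSG00000101665, GRCh38 chr18:48919853-48952052, protein coding). Its counts were 29, 30, 32 and 27 in Combo libraries and 18, 15, 26 and 16 in Irino libraries. They were 20, 23, 16 and 20 in Simv libraries and 13, 9, 5 and 22 in DMSO libraries. As levels, Combo libraries had 1.10, 1.18, 1.15 and 1.10 CPM and lay above every other library of the study. Irino libraries had 0.651, 0.453, 0.903 and 0.637 CPM, Simv libraries 0.757, 0.949, 0.551 and 0.807 CPM, and DMSO libraries 0.468, 0.373, 0.197 and 0.710 CPM. Those 3 groups overlapped one another.

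The combination raised SMAD7 by 1.33 ± 0.30 on the log2 scale against DMSO (adjusted p = 0.000989 in edgeR, 95% interval 0.72 to 1.94), a fold of 2.52. Of all genes tested, 99.4% had a lower log2 fold change in that comparison. Simvastatin alone gave 0.75 ± 0.32 (adjusted p = 0.190 in edgeR) and irinotecan alone 0.55 ± 0.32 (adjusted p = 0.238), and neither was called. The combination against irinotecan gave 0.78 ± 0.28 (adjusted p = 0.0991) and against simvastatin 0.58 ± 0.28 (adjusted p = 0.131), so neither single drug was told apart from the combination by this test, although no libraries overlapped. The interaction of the drugs was 0.03 ± 0.45 on the log2 scale (95% interval -0.90 to 0.96), an interval too wide to separate an additive from a larger or smaller joint effect. Summed over 4 libraries, SMAD7 had 118 counts in Combo, 75 in Irino, 79 in Simv and 49 in DMSO. Divided by the summed library totals, these are 1.15 CPM in Combo (exact Poisson 95% interval 0.953 to 1.38), 0.672 in Irino (0.529 to 0.843), 0.740 in Simv (0.586 to 0.922) and 0.442 in DMSO (0.327 to 0.584), where the intervals cover counting error only. DMSO replicate 4 had the highest of the DMSO counts and replicate 3 the lowest. Without the first the log2 fold change of the combination was 1.69, and without the second 1.10, both called.

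**Figure D2:**
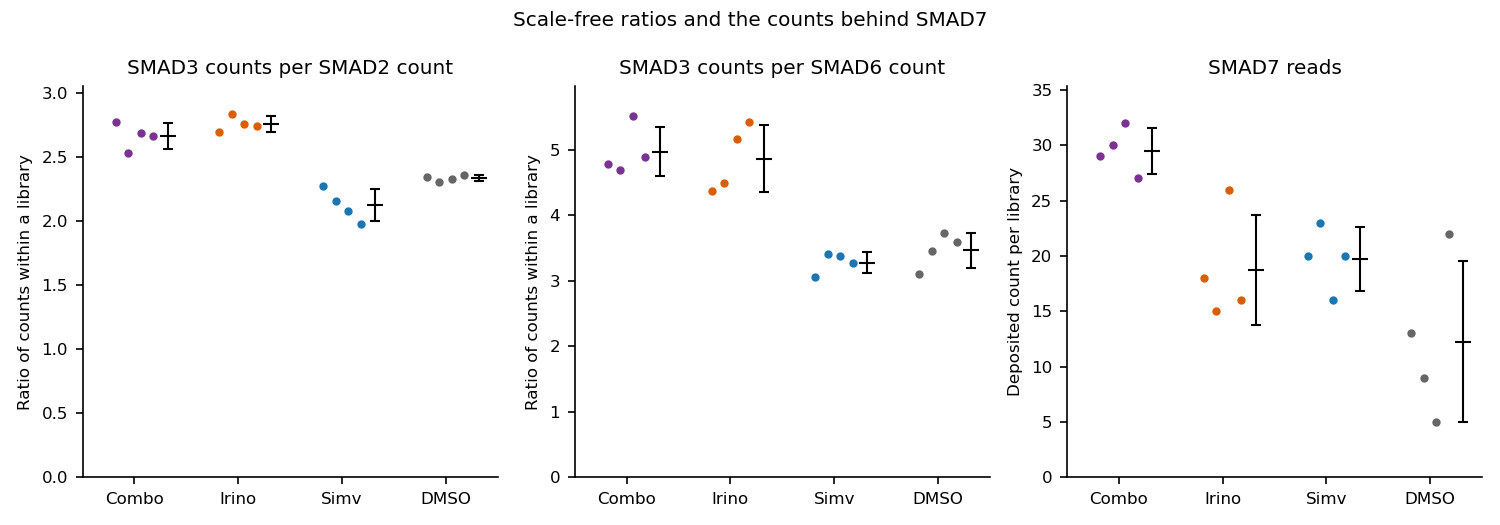
Ratios of counts within each library (left and middle, no scaling factor enters) and deposited SMAD7 counts (right), for Combo, Irino, Simv and DMSO libraries. Points are libraries and bars the mean with the SD of 4. SMAD3 per SMAD2 is 2.53 to 2.84 in all libraries with irinotecan and 1.98 to 2.36 in all without it, and SMAD7 counts run from 27 to 32 in Combo and from 5 to 22 in DMSO.

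The receptor-activated pair, SMAD3 and SMAD2, differed in opposite directions between libraries with and without irinotecan, by small amounts. SMAD2 was not called with irinotecan alone. With irinotecan against DMSO, 49.6% of all genes had a larger absolute log2 fold change than SMAD3, and 54.7% a larger one than SMAD2. SMAD3 (ENSG00000166949, GRCh38 chr15:67063763-67195195, protein coding), which binds DNA directly, had 120.1, 117.7, 126.7 and 121.8 CPM in Combo libraries and 123.2, 125.6, 131.4 and 129.7 CPM in Irino libraries. Simv libraries had 109.4, 112.0, 114.5 and 107.4 CPM and DMSO libraries 116.5, 113.8, 117.1 and 119.0 CPM. All Irino libraries were above all DMSO libraries, and all Combo libraries above all Simv libraries, while Combo and DMSO overlapped. The log2 fold change was 0.13 ± 0.04 for irinotecan against DMSO (adjusted p = 0.00946 in edgeR) and 0.13 ± 0.04 for the combination against simvastatin (adjusted p = 0.00721). The group means in these comparisons share no library, but both tests take their spread from the same fit of all 16 libraries. The combination against DMSO gave 0.06 ± 0.04 (adjusted p = 0.234) and simvastatin alone -0.07 ± 0.04 (adjusted p = 0.311).

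SMAD2 (ENSG00000175387, GRCh38 chr18:47808957-47931146, protein coding), whose main protein form does not bind DNA by itself, had 43.3, 46.5, 47.2 and 45.8 CPM in Combo libraries and 45.8, 44.3, 47.7 and 47.3 CPM in Irino libraries. Simv libraries had 48.2, 51.9, 55.1 and 54.4 CPM and DMSO libraries 49.7, 49.4, 50.3 and 50.5 CPM. Every library with irinotecan was below every library without it. The combination against simvastatin gave -0.20 ± 0.05 on the log2 scale (adjusted p = 0.00200 in edgeR). The combination against DMSO gave -0.13 ± 0.05 (adjusted p = 0.0372), a call that was lost when any 1 of the 4 DMSO libraries, Combo replicate 4 or Combo replicate 1 was left out (adjusted p = 0.0528 to 0.129) and when libraries were scaled by their totals alone (adjusted p = 0.251). Irinotecan alone gave -0.11 ± 0.05 (adjusted p = 0.0787), which was not called.

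The ratio of SMAD3 to SMAD2 counts does not depend on scaling. It was 2.66 ± 0.10 in Combo, 2.76 ± 0.06 in Irino, 2.12 ± 0.12 in Simv and 2.33 ± 0.02 in DMSO libraries (SD, n = 4). All 8 libraries with irinotecan, at 2.53 to 2.84, were above all 8 without it, at 1.98 to 2.36. Counts of SMAD3 per SMAD6 count were 4.97 ± 0.37 in Combo, 4.86 ± 0.51 in Irino, 3.28 ± 0.16 in Simv and 3.46 ± 0.27 in DMSO libraries, again without overlap between libraries with and without irinotecan. Both ratios set a member that was higher with irinotecan over one that was lower. They restate the changes above and are not further support. The ratio of SMURF2 to SMURF1 overlapped (1.35 to 1.46 in Irino, 1.29 to 1.44 in DMSO). That of SKI to SKIL did too (1.94 to 2.27 in Irino, 1.84 to 2.23 in DMSO). SMAD4, the common partner of both branches, was called in 0 of 5 comparisons. It averaged 36.2 ± 0.9 CPM in Combo, 35.3 ± 1.1 in Irino, 38.8 ± 2.4 in Simv and 37.7 ± 4.0 in DMSO libraries (SD, n = 4), and its groups overlapped. Its log2 fold changes lay between -0.10 and 0.04, with 95% intervals inside -0.22 to 0.16.

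No corepressor and no SMURF ligase was called in any comparison. SKI, the corepressor first found as a viral oncogene's cellular form, had 104.9 to 110.0 CPM in Combo, 101.4 to 111.5 in Irino, 100.9 to 107.5 in Simv and 101.8 to 110.2 in DMSO libraries. SKIL, its relative that TGF-β signals both degrade and induce, had 54.4 to 59.4 CPM in Combo, 47.3 to 56.1 in Irino, 51.8 to 57.0 in Simv and 46.5 to 56.5 in DMSO libraries. TGIF1, a homeodomain corepressor of SMAD2 and SMAD3, had 52.6 to 57.7 CPM in Combo, 52.6 to 57.9 in Irino, 53.1 to 59.8 in Simv and 51.1 to 53.2 in DMSO libraries. The groups overlapped for all 3 corepressors. SMURF1, the ligase first tied to BMP-branch SMADs, averaged 33.1 ± 0.7 CPM in Combo, 34.4 ± 1.3 in Irino, 34.9 ± 1.9 in Simv and 34.1 ± 1.0 in DMSO libraries (SD, n = 4). SMURF2, which also targets TGF-β receptors, averaged 51.0 ± 4.8 CPM in Combo, 49.1 ± 1.7 in Irino, 49.5 ± 1.1 in Simv and 46.8 ± 1.6 in DMSO libraries.

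In all 25 tests of these 5 genes the log2 fold change lay between -0.08 and 0.13, and the 95% intervals reached from -0.18 to 0.25, that is from 11.6% below to 18.9% above the group compared with. These bounds show how large a change could have gone uncalled and do not show that the genes were unchanged. The lowest adjusted p was 0.0820 in edgeR, for SMURF2 in the combination against DMSO (0.12 ± 0.05), and SMURF2 passed the threshold when Combo replicate 1 or Combo replicate 2 was left out (adjusted p = 0.0306 and 0.0439). Without Combo replicate 3, which had the highest SMURF2 level of the study at 57.3 CPM, the log2 fold change was 0.06 (adjusted p = 0.423). SKIL in the combination against irinotecan (0.13 ± 0.06) had an adjusted p = 0.190 in edgeR. These 2 tests were those of the 25 with an unadjusted p under 0.05. Scaling by library totals alone raised the median of all genes by 0.07 with irinotecan and 0.06 with the combination on the log2 scale. Under that scaling SKI, TGIF1 and SMURF2 were called higher with irinotecan and with the combination, and SKIL with the combination, all against DMSO. Of all genes, 29.2% were then called with irinotecan and 31.7% with the combination. Exons of SMURF1 share 11.7% of their bases with TRRAP on the opposite strand, and those of SMURF2 share 2.40% with CEP95. Whether the counting used strand is not given in the sources used here, so reads in the shared parts cannot be assigned with certainty.

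**Figure D3:**
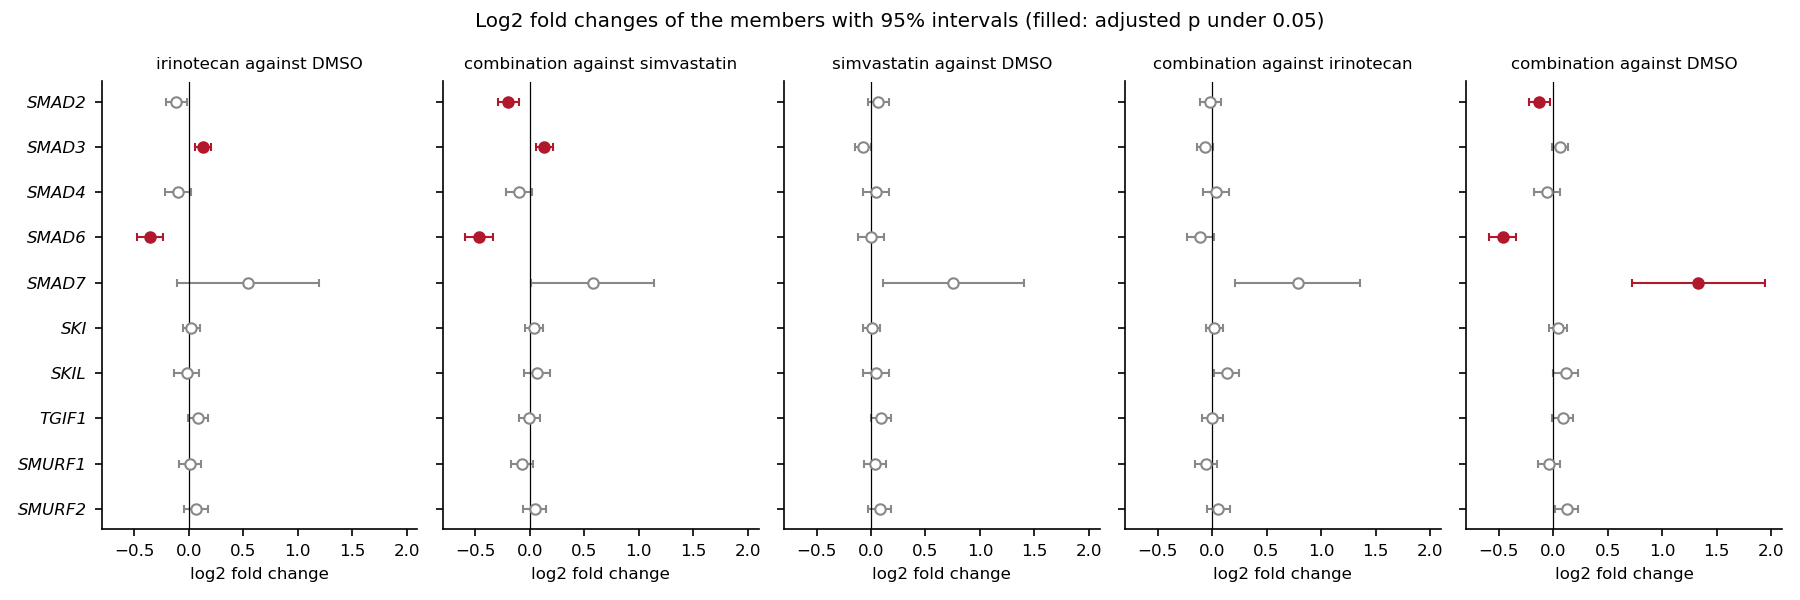
Log2 fold change (x axis, first-named group over the second) of each member with its 95% interval in 5 comparisons. Filled red points passed an adjusted p of 0.05 in edgeR. SMAD6 is at -0.36 to -0.47 in the 3 comparisons of irinotecan present against absent, SMAD7 at 1.33 in the combination against DMSO, and no member is called for simvastatin against DMSO or for the combination against irinotecan.

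Counted over the family, irinotecan against DMSO called 2 of 10 members, SMAD3 higher and SMAD6 lower, beside 24.1% of all genes tested. The combination against DMSO called 3 of 10, SMAD7 higher and SMAD2 and SMAD6 lower, beside 28.1% of all genes. The combination against simvastatin called 3 of 10, SMAD3 higher and SMAD2 and SMAD6 lower, beside 25.6%. These shares are near the background of their comparisons. Simvastatin against DMSO called 0 of 10 in edgeR and in DESeq2, beside 6% of all genes, and 1 member, SMAD7, had an unadjusted p under 0.05. The combination against irinotecan called 0 of 10 in both tools, beside 5.94%, and SMAD7 and SKIL had an unadjusted p under 0.05. The interaction of the drugs called 0 of 10 in both tools, beside 0.012% of all genes, and 0 members had an unadjusted p under 0.05 (lowest adjusted p = 0.881 in edgeR, TGIF1).

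The median log2 fold change of the members was 0.02 with irinotecan, 0.05 with the combination and 0.04 with simvastatin, all against DMSO, where the medians of all genes were 0.00, 0.00 and -0.01. Without regard to sign, the members' median was 0.09 with irinotecan, 0.10 with the combination and 0.06 with simvastatin, and that of all genes was 0.13, 0.15 and 0.09. Libraries did not overlap for 3 members with irinotecan against DMSO (23.4% of all genes), 3 with the combination against DMSO (26.2%) and 4 with the combination against simvastatin (25.8%). They did not overlap for 0 members with simvastatin against DMSO (10% of all genes) and for 1, SMAD7, with the combination against irinotecan (13.1%). The comparisons with DMSO share the same DMSO libraries.

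An additive model with a term for each drug, chosen after the data had been seen, set the 8 libraries with a drug against the 8 without it. Its irinotecan term called SMAD2 (-0.15 ± 0.03, adjusted p = 0.000386 in edgeR), SMAD3 (0.13 ± 0.03, adjusted p = 0.000125), SMAD6 (-0.41 ± 0.04, adjusted p = 3.56e-09) and SMAD7 (0.56 ± 0.21, adjusted p = 0.0309), beside 37.6% of all genes. Its simvastatin term called SMAD7 alone (0.77 ± 0.21, adjusted p = 0.0104), beside 12.6% of all genes. SMAD4, SKI, SKIL, TGIF1, SMURF1 and SMURF2 were called by neither term, and SMAD4 had an adjusted p of 0.0592 for irinotecan.

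Per kilobase of its annotated main transcript, SMAD7 was the lowest member in every group, at 0.256 CPM per kb in Combo, 0.149 in Irino, 0.173 in Simv and 0.0987 in DMSO. On the same scale SMAD6 stood at 6.40 in Combo, 6.88 in Irino, 8.83 in Simv and 8.81 in DMSO. SMAD3 stood at 19.5 in Combo, 20.4 in Irino, 17.7 in Simv and 18.7 in DMSO. SMAD7 was thus far less abundant than SMAD6 in all groups, also in the combination, where SMAD6 was lowest and SMAD7 highest. The annotated main transcript of SMAD2 is 34.5 kb long, which makes its level per kb, 1.32 in Combo and 1.45 in DMSO, hard to compare with the other members.

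The genes whose log2 CPM over the 16 libraries was most like that of SMAD6, among 12016 genes searched, were KCNN4 (Pearson r = 0.966), MT2A (r = 0.964) and TKT (r = 0.957). For SMAD7 they were RCN3 (r = 0.843), SLFN5 (r = 0.838) and DDIT3 (r = 0.836). For SMAD2 they were FLRT2 (r = 0.921), MLLT3 (r = 0.919) and NR2C2AP (r = 0.911). These values rest on the group differences and on libraries that all genes share. After group means were removed they were 0.664 to 0.783 for the SMAD6 genes, 0.372 to 0.510 for the SMAD7 genes and 0.733 to 0.898 for the SMAD2 genes. The genes had been picked by their correlation in the same libraries, so these later values are not a separate check. No such values of other genes were set beside them.

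The receptor SMADs of the BMP branch, SMAD1, SMAD5 and SMAD9, which carry BMP signals to SMAD4, were called in 0 of 5 comparisons each. SMAD5 came nearest with irinotecan against DMSO, at 125.2 ± 7.5 CPM in Irino and 136.1 ± 6.0 CPM in DMSO libraries (SD, n = 4, log2 fold change -0.12 ± 0.05, adjusted p = 0.0564 in edgeR). DESeq2 called 1 of these 3 genes in that comparison, as did edgeR with median-ratio size factors, in the 12 numbered libraries, in the additive model, and without any 1 of 5 libraries (DMSO replicate 1, Simv replicate 3, Irino replicate 4, Irino replicate 3 and Combo replicate 3). SMAD9 averaged 5.50 ± 0.59 CPM in Combo, 4.57 ± 0.56 in Irino, 6.50 ± 0.35 in Simv and 5.42 ± 0.98 in DMSO libraries, and without DMSO replicate 3 the simvastatin comparison called 1 of the 3, as did the additive model. The combination against irinotecan called 1 of the 3 when only those groups were fitted, and without Simv replicate 3 or Irino replicate 3. For all these alternatives only the number called was kept, so which of the 3 genes it was is not given.

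Of 34 other SMAD regulators tested, such as ligases, phosphatases, importins and cofactors, 2 were higher and 6 lower with irinotecan, and 4 were higher and 6 lower with the combination, both against DMSO. These are 23.5% and 29.4% of the list, near the shares of all genes. PMEPA1, a TGF-β target that sequesters SMAD2 and SMAD3, was at 925.8 ± 16.1 CPM in Combo, 858.2 ± 8.9 in Irino, 1372 ± 28 in Simv and 1398 ± 62 in DMSO libraries (SD, n = 4). It fell with irinotecan by 0.70 on the log2 scale (adjusted p = 2.83e-16 in edgeR) and with the combination by 0.59 (adjusted p = 1.38e-14), both against DMSO. With irinotecan the SMAD-binding repressor genes ZEB1 (-0.31 ± 0.06, adjusted p = 0.000239) and ZEB2 (-0.24 ± 0.05, adjusted p = 0.000541) fell against DMSO. With the combination TGIF2, the close relative of TGIF1, fell (-0.27 ± 0.06, adjusted p = 0.000491) and the deubiquitinase gene UCHL5 rose (0.20 ± 0.05, adjusted p = 0.00122), both against DMSO. The count with irinotecan was 5 in place of 8 without Irino replicate 1, 2 or 3, and 4 with no filter on low counts.

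Upstream of the SMADs, 7 of 19 TGF-β and activin ligand and receptor genes rose and 3 fell with irinotecan, and 8 rose and 3 fell with the combination, both against DMSO. These are 52.6% and 57.9% of the list, beside 24.1% and 28.1% of all genes. GDF11, a ligand that signals through SMAD2 and SMAD3, was at 45.9 ± 1.5 CPM in Combo, 43.6 ± 1.4 in Irino, 28.3 ± 2.1 in Simv and 30.7 ± 1.0 in DMSO libraries (SD, n = 4). It rose by 0.51 ± 0.05 with irinotecan and 0.58 ± 0.05 with the combination on the log2 scale, both against DMSO. FST, which encodes the activin trap follistatin, was at 4.62 ± 0.85 CPM in Combo, 3.60 ± 0.53 in Irino, 2.29 ± 0.39 in Simv and 1.61 ± 0.20 in DMSO libraries, and it too rose with irinotecan (adjusted p = 2.64e-06 in edgeR) and with the combination (adjusted p = 1.37e-08). Of 17 BMP ligand, receptor and antagonist genes, 3 rose and 3 fell with irinotecan, and 5 rose and 2 fell with the combination, both against DMSO. These are 35.3% and 41.2% of the list, beside 24.1% and 28.1% of all genes. Without DMSO replicate 3 or Combo replicate 1 the count with the combination was 4 in place of 7. BMP4 rose with irinotecan (0.99 ± 0.11, adjusted p = 1.93e-08) and with the combination (1.01 ± 0.11, adjusted p = 1.21e-08), both against DMSO. NOG, which encodes the BMP antagonist noggin, was at 69.1 ± 4.1 CPM in Combo, 46.4 ± 3.7 in Irino, 44.7 ± 3.6 in Simv and 33.6 ± 2.3 in DMSO libraries, and it rose in the combination against either drug alone (adjusted p = 2.13e-07 against irinotecan and 7.79e-09 against simvastatin).

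Downstream, 14 of 33 TGF-β response genes fell and 8 rose with irinotecan against DMSO, 8 rose and 0 fell with simvastatin against DMSO, and 18 rose and 0 fell in the combination against irinotecan. With the combination 11 rose and 6 fell against DMSO, and 8 rose and 11 fell against simvastatin. Of all genes tested, 12.4% rose and 11.7% fell with irinotecan against DMSO, 3.89% rose and 2.11% fell with simvastatin against DMSO, and 4.45% rose and 1.5% fell in the combination against irinotecan. With the combination 15.1% rose and 13% fell against DMSO, and 13.9% rose and 11.7% fell against simvastatin. LOX, which encodes a collagen cross-linking enzyme, was at 78.0 ± 1.7 CPM in Combo, 42.2 ± 4.6 in Irino, 134.0 ± 9.3 in Simv and 69.3 ± 3.1 in DMSO libraries (SD, n = 4), and it rose both with simvastatin against DMSO (0.95 ± 0.06) and in the combination against irinotecan (0.89 ± 0.06). With simvastatin against DMSO and in the combination against irinotecan, 0 of the 10 members were called, beside 6% and 5.94% of all genes. For 10 genes this is near the background. Of 14 BMP response genes, 3 rose and 3 fell with irinotecan, and 2 rose and 4 fell with the combination, both against DMSO. This is 42.9% of the list in both comparisons, beside 24.1% and 28.1% of all genes. ID1, an inhibitor of differentiation factors and a classical BMP target, was at 29.9 ± 1.8 CPM in Combo, 29.1 ± 2.5 in Irino, 41.0 ± 1.6 in Simv and 39.0 ± 3.3 in DMSO libraries. Like SMAD6, it fell with irinotecan (-0.42 ± 0.06, adjusted p = 4.58e-06 in edgeR) and with the combination (-0.39 ± 0.06, adjusted p = 1.77e-05), both against DMSO. Other genes of this list went the other way against DMSO. MSX2 rose with irinotecan (0.42 ± 0.09, adjusted p = 0.000555 in edgeR) and with the combination (0.38 ± 0.09, adjusted p = 0.00164). DLX5 rose with irinotecan (0.30 ± 0.07, adjusted p = 0.00138). The lists overlap in PMEPA1, BAMBI and SMAD9, and each share is a description set beside that of all genes.

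**Figure D4:**
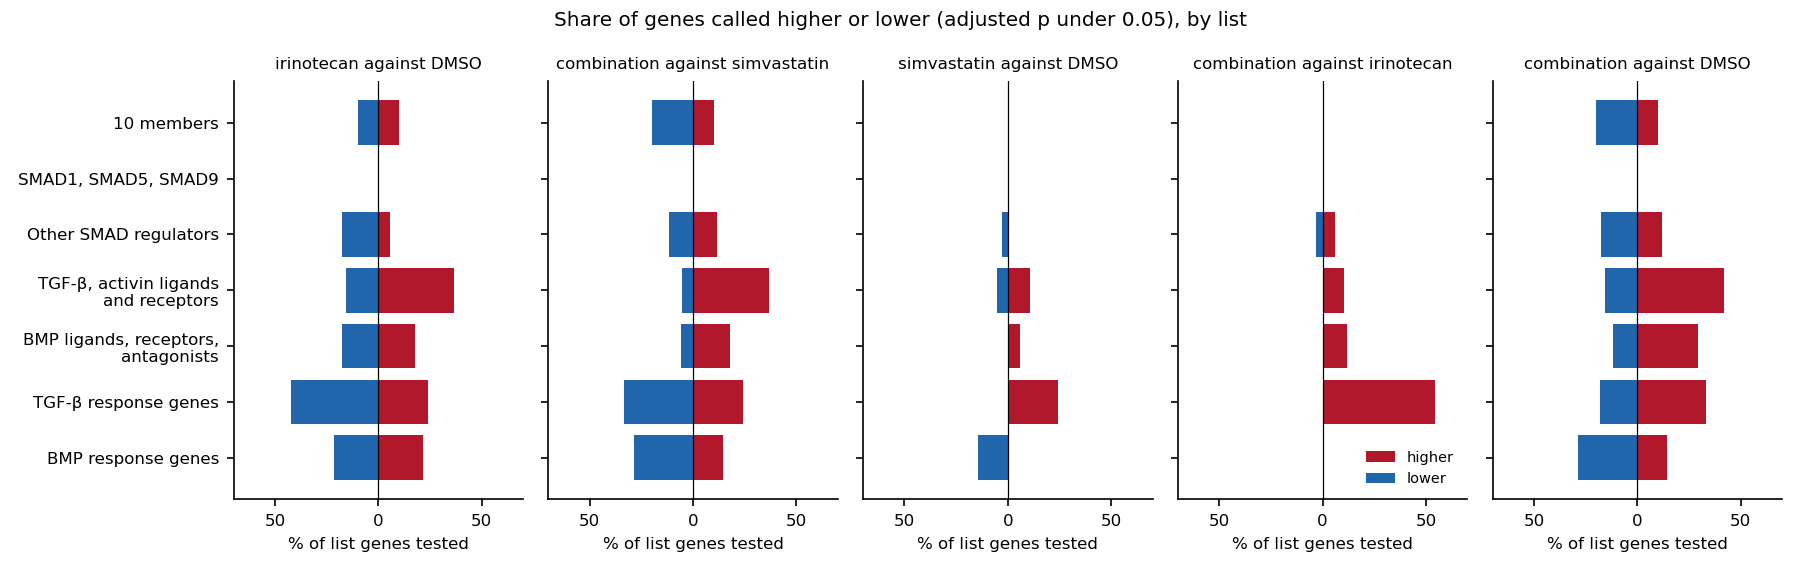
Share of tested genes called higher (red, to the right) or lower (blue, to the left) at an adjusted p under 0.05 in edgeR, for the 10 members and 6 other lists in 5 comparisons. For the members the bars reach 10% higher and 20% lower at most, and they are empty for simvastatin against DMSO and for the combination against irinotecan, where 24.2% and 54.5% of the TGF-β response genes were called. Of all genes tested, 6% and 5.94% were called in those comparisons, so 0 of 10 members is near the background.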

How the data were processed

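Poly(A) RNA of U-251 MG cells was sequenced in 16 libraries, 4 per group. The deposited table holds counts, whole reads per gene that the authors had not normalised. The submitters' processing notes name FastQC, STAR 2.7.1, DESeq2 and the build GRCh38. How reads were assigned to genes, with which annotation and strand setting, is not given in the sources used here. In each group the library without a number in its title was called replicate 4. No pair of libraries in a group differed as little as sampling noise (chi-squared per degree of freedom 2.59 to 15.4).

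The analysis used edgeR 4.0.16, limma 3.58.1 and R 4.3.3. Genes kept by filterByExpr (minimum count 10, minimum total 15) numbered 16647 of 58243. A robust quasi-likelihood model with TMM scaling took all 16 libraries, a term for each group and 6 contrasts. Its F tests were two-sided, and p was adjusted over all genes (Benjamini-Hochberg). Standard errors were derived from the F statistics. The common biological coefficient of variation was 5.25%. The test was tried on simulated counts. Alternatives were DESeq2 1.42.0, other scalings, no filter, a threshold of 0.01, the 12 numbered libraries with and without a replicate block, the compared groups alone, an additive model and each library left out in turn.

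Gene coordinates and lengths came from GENCODE 29 (57980 of the IDs matched), and promoters from RefSeq. The members and gene lists were chosen with earlier results of these data known. Genes named were the members, SMAD1, SMAD5 and SMAD9, among the 4 with the smallest p of each list in a comparison, and the 3 genes most like each of the 3 members with the largest called fold changes. Not all genes that this rule takes are named. Plots were made in matplotlib 3.10.9 under Python 3.11.15.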

Additional observations from a re-analysis of the deposited data

Results flagged for a closer look

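SMAD6 in Combo replicate 3, at 23.0 CPM, lay apart from the other 3 Combo libraries, which were within 24.9 to 25.1 CPM. Its gap to the nearest library was 0.918 of the group's range, above Dixon's 95% critical value for 4 libraries. Of 40 groups of 4 libraries examined (10 genes in 4 groups) this was the 1 past the limit, where chance alone gives about 1 in 20, or 2. SMAD6 stayed called in the combination against DMSO whichever library was left out, with log2 fold changes of -0.50 to -0.41.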

How the results depend on the processing

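The SMAD6 calls and the SMAD7 call in the combination against DMSO held under every alternative run and without any 1 of the 16 libraries. Of 1450 recomputed member results no called one changed sign, 11 calls were lost and 15 were gained. With libraries scaled by their totals alone, 5 members were called with irinotecan (SMAD3, SMAD6, SKI, TGIF1 and SMURF2) and 7 with the combination (SMAD3, SMAD6, SMAD7, SKI, SKIL, TGIF1 and SMURF2), both against DMSO. Of all genes, 29.2% and 31.7% were called under that scaling, which raised the median of all genes as given above. The additive model gave 1 member for simvastatin and 4 for irinotecan, beside 12.6% and 37.6% of all genes. Its terms pool 8 libraries against 8. SMAD2 in the combination against DMSO was also not called with no filter (adjusted p = 0.0713), at a threshold of 0.01, or in the 12 numbered libraries without a block (adjusted p = 0.121), and SMAD3 in the combination against simvastatin was lost in the last of these (adjusted p = 0.0629). Leaving out each library in turn gave 2 to 4 members in the combination against DMSO, 3 to 3 in the combination against simvastatin, 2 to 2 with irinotecan against DMSO, and 0 to 0 in the other comparisons. In the same order, 23.6% to 28.6%, 20.6% to 25.9% and 20.1% to 24.8% of all genes were called. In the others it was 3.92% to 7.25% with simvastatin against DMSO, 4% to 6.59% in the combination against irinotecan and 0% to 0.0533% in the interaction.

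In the 12 numbered libraries, with the replicate number as a block, 1 member was called in the combination against irinotecan (SKIL, 0.19, adjusted p = 0.0233), and SKIL was also called in the combination against DMSO (0.15, adjusted p = 0.0421). Deviations from the group means correlated between same-numbered libraries at -0.0795 to 0.162, above 0 in 17 of 18 pairs and over 0.1 in 2, and the numbers were not taken as pairs because not every pair was over 0.1. That 9 of 12 libraries correlated best with libraries of their own number is a hint from the data, not the design, of a weak shared deviation. In the same 12 libraries, 2016 of all genes were called in the combination against irinotecan with the block and 707 without it, and 190 in the interaction with the block and 1 without it. Of SMAD1, SMAD5 and SMAD9, the block called 2 with irinotecan against DMSO and 1 in the combination against irinotecan. Counts of called genes in the other lists moved by over 1.5 times in 78 of 870 recomputed values. The cause of these changes was not tested. SMAD7, with 5 to 32 counts per library, is the member that depth limits.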

Other observations

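SMURF2 and SMAD3 varied among libraries of a group in a way that the treatments do not describe, a pattern chosen after its values were seen. The library numbered 3 held the highest SMURF2 level of its group in all 4 groups, at 57.3 CPM in Combo, 51.5 in Irino, 50.6 in Simv and 48.6 in DMSO. With group means removed, SMAD3 and SMURF2 had a Pearson correlation of 0.747 over the 16 libraries and SMAD3 and TGIF1 one of -0.869, while over all libraries the values were 0.350 and -0.205. Points of the same library share its depth and scaling.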
